A study of Mus musculus with 29 samples.

Results

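In all, 9 genes of B and T lymphocytes were followed in brown adipose tissue (BAT) and skeletal muscle (SkM): Cd79a, Cd79b, Ms4a1 and Cd22 as B cell markers, Cd3e, Cd3g, Cd8a and Cd4 as T cell markers, and Ptprc as a marker of all leukocytes. These 9 were picked by name from the 24770 gene symbols of the table, with earlier results of these data known, and every one had a row. Bulk RNA-seq was made of male C57BL/6J wild-type mice that began the interventions at 8 weeks of age and stayed on them for 8 weeks. Control mice were sedentary and fed ad libitum, CR mice were sedentary with food lowered to 70% of ad libitum intake, EX mice were fed ad libitum and trained on a treadmill, and CREX mice had both. All mice were fasted for 6 h before harvest, and trained mice were taken 24 h after the last run. BAT came from 3 control, 4 CR, 4 EX and 4 CREX mice, and SkM, the gastrocnemius, from 4 control, 3 CR, 4 EX and 3 CREX mice, with 1 library each.

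B and T cells recognise antigen through surface receptors whose signal is carried by accompanying chains. In B cells these chains are CD79A and CD79B, and in T cells they are the CD3 chains. MS4A1 (CD20) is a B cell membrane protein, CD22 is an inhibitory receptor that dampens the B cell receptor, and CD4 and CD8A are coreceptors that bind MHC molecules. CD45, the product of Ptprc, is a tyrosine phosphatase on all nucleated blood cells. Adipose tissue is known to hold resident lymphocytes and macrophages in its stroma. In bulk tissue, fewer cells of a type and less RNA per cell cannot be told apart.

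In mouse assembly GRCm38, RefSeq places Cd79a on chromosome 7 at 24897497-24901858 and Cd22 on the same chromosome at 30865404-30880342. Cd79b lies on chromosome 11 at 106311341-106314562, and Ms4a1 on chromosome 19 at 11249679-11266149, where it overlaps 4930526L06Rik. Cd3e (44998735-45009663) and Cd3g (44969572-44980431) are neighbours on chromosome 9, and Cd8a (71373427-71379171) and Cd4 (124864693-124888247) are both on chromosome 6. Ptprc is on chromosome 1 at 138062859-138175756.

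The promoters of a pair of B cell markers and of a pair of T cell markers are shown because the levels of Cd79a and Cd22 did not overlap between fed and food-restricted BAT while those of Cd3e did. Each sequence runs from 250 bases before to 50 bases after the start in the RefSeq promoter table, and capitals mark the E-box CAGGTG, a core bound by E proteins, and GAGGAA, a core bound by PU.1, found on either strand. The Cd22 entry starts inside the span that the RefSeq gene table gives.
Cd79a, chr7:24897247-24897546, plus strand: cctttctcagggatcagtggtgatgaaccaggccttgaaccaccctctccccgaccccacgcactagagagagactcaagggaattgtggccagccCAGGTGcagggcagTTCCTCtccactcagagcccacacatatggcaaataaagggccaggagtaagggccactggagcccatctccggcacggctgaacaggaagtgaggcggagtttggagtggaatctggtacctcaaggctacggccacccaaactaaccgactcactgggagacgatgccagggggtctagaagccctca
Cd22, chr7:30878979-30879278, minus strand: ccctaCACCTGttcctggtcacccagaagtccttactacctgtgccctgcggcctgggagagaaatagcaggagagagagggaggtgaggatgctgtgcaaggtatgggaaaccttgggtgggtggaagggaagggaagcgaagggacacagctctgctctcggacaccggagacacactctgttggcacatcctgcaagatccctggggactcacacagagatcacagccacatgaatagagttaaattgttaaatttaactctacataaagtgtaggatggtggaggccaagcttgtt
Cd3e, chr9:45009562-45009861, minus strand: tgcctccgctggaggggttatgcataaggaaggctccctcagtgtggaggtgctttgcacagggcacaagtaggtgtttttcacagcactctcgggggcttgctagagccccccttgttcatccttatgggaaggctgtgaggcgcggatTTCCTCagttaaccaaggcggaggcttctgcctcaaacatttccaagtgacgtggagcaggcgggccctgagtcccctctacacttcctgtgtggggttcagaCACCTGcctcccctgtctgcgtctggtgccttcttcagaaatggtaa
Cd3g, chr9:44980382-44980681, minus strand: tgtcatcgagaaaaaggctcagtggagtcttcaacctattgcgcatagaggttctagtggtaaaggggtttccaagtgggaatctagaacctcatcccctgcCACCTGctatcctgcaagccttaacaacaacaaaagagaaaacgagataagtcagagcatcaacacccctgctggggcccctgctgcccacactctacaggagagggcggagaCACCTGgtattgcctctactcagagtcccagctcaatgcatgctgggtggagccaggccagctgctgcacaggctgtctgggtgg
The E-box letters stood once in the Cd79a, Cd22 and Cd3e windows and at 2 places in that of Cd3g, and they are in 20.2% of all 32851 promoters of the table. GAGGAA stood once in the Cd79a and Cd3e windows and is in 28.3% of all promoters, so neither motif separates the B from the T cell markers in these windows. The octamer ATGCAAAT was found in none of these windows and is in 1.74% of all promoters. Promoters of Cd8a and Ptprc were also in that promoter table; Cd79b, Ms4a1 and Cd4 had no entry.

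Totals ran from 21047242 to 24919377 counts per library in BAT and from 23050918 to 23425284 in SkM. Levels are CPM, the count of a gene as a share of its library's total, scaled by TMM, a normalization that equalises the bulk of genes between libraries. A gene with 3 counts, taken as the floor, stood at 0.119 to 0.143 CPM in the BAT libraries and at 0.114 to 0.141 CPM in the SkM libraries, so most of the lymphocyte markers were near the floor. Markers of the tissue itself were present as the labels say: the summed level of 10 brown adipocyte genes ranged from 11020 to 16430 CPM among BAT libraries and from 380.9 to 939.5 CPM among muscle libraries, and that of 10 muscle fibre genes was 121800 to 200200 CPM in SkM. Muscle fibre genes also varied in BAT, with sums of 3.33 to 741.3 CPM in control, 21.4 to 1587 in CR, 6.38 to 4263 in EX and 1118 to 6906 in CREX libraries. Their part in the results was not tested. Red blood cell genes overlapped between the BAT groups, with sums of 929.5 to 3179 CPM in control, 1170 to 2328 in CR, 784.4 to 1405 in EX and 1117 to 2249 in CREX libraries.

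In control BAT, the levels per kilobase of exon were highest for Ptprc, at 0.538 ± 0.0460 CPM per kb (SD, n = 3), and next for the B cell receptor chains Cd79a at 0.411 ± 0.0892 and Cd79b at 0.350 ± 0.106. Cd4 followed at 0.194 ± 0.0781 CPM per kb, then Cd3e at 0.134 ± 0.0453, Cd3g at 0.124 ± 0.0733, Ms4a1 at 0.0619 ± 0.0595, Cd8a at 0.0579 ± 0.0502 and Cd22 at 0.0455 ± 0.0130. The means ± SD of every neighbouring pair in this order overlapped.

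B cell markers of BAT were far lower in both groups on restricted food, and their levels with training alone were close to those of control mice. Cd79a stood at 16, 16 and 11 counts in the control libraries, at 1 count in each of the 4 CR libraries, at 17, 12, 15 and 15 counts in the EX libraries and at 0, 2, 1 and 3 counts in the CREX libraries. Every CR and CREX library was at or under the floor and every control and EX library was above it. Mean levels were 0.598 ± 0.130 CPM (SD, n = 3) in control, 0.0436 ± 0.00285 (n = 4) in CR, 0.652 ± 0.0988 (n = 4) in EX and 0.0622 ± 0.0524 CPM (n = 4) in CREX BAT. Summed over libraries, the level in control was 13.7 times that in CR, with a 95% counting interval of 4.99 to 52.6. EX stood at 10.5 times CREX (4.56 to 29.9). These intervals cover counting error only.

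Cd79b, the partner chain of Cd79a, had 14, 14 and 8 counts in control, 2, 2, 4 and 4 in CR, 11, 6, 16 and 13 in EX and 0, 5, 1 and 5 in CREX BAT. CR lay below control in every library and CREX below EX in every library, although its CR and CREX levels were less depleted than those of Cd79a. The summed level in control was 3.83 times that in CR (counting interval 1.95 to 8.08), and that in EX was 4.48 times that in CREX (2.29 to 9.59). Whether Cd79a and Cd79b differed in their response was not tested.

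Ms4a1 and Cd22, which encode B cell surface proteins, had even fewer counts. Ms4a1 was counted 2, 10 and 2 times in control, 4, 1, 3 and 5 times in EX, once in 1 CREX library and never in the other 3 CREX or the 4 CR libraries. Against the floor of 3 counts over the CR group, Ms4a1 was at least 5.95-fold higher in control, or at least 2.60-fold without control replicate 2, which held 10 of the 14 counts. EX stood at 13.9 times CREX (2.09 to 591.8), and at least 3.49-fold higher without CREX replicate 3. Cd22 was counted 5, 4 and 7 times in control and 6, 6, 8 and 10 times in EX, but 1, 0, 0 and 0 times in CR and 2, 0, 0 and 1 times in CREX. The groups of Cd22 did not overlap, and for Ms4a1 CREX and EX were apart in CPM although both held a library with 1 count. The Cd22 ratios were 20.4 for control over CR (3.17 to 856.1) and 10.7 for EX over CREX (3.33 to 54.9). Without CR replicate 1 the first became a bound of at least 5.10-fold, and without CREX replicate 1 the latter was 23.8 (3.96 to 971.4).

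**Figure D1:**
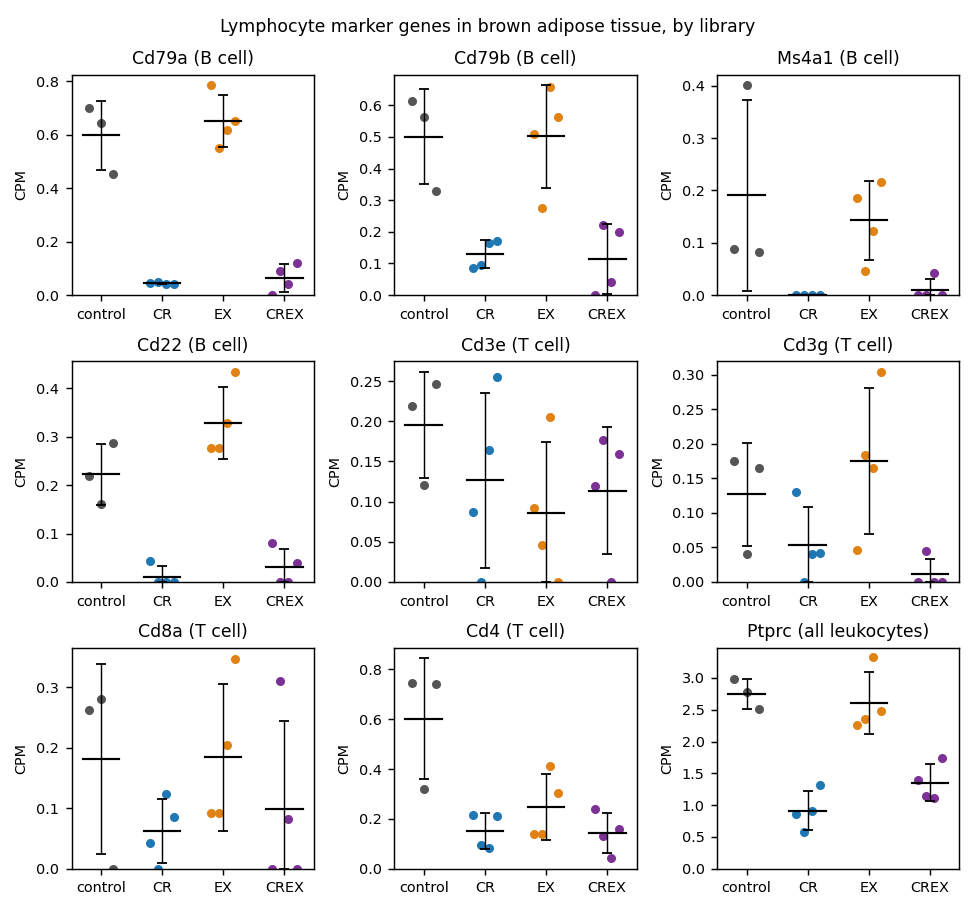
Level of each lymphocyte marker in the 15 BAT libraries, in TMM-scaled CPM on linear axes from 0 that differ between panels; points are libraries, long bars group means and error bars 1 SD, cut at 0. All 4 B cell markers and Ptprc sit lower in each CR library than in each control library, and lower in each CREX library than in each EX library. Cd4 is lower in this way only in CR against control and Cd3g only in CREX against EX, whereas Cd3e and Cd8a overlap between groups.

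T cell markers were less uniform. Cd4 had 17, 8 and 18 counts in control, 5, 2, 2 and 5 in CR, 3, 3, 10 and 7 in EX and 6, 3, 1 and 4 in CREX BAT. Every CR library was below every control library, while EX and CREX overlapped. Control stood at 3.92 times CR (counting interval 2.10 to 7.76) and EX at 1.76 times CREX (0.868 to 3.70). CD4 is also found on some dendritic cells.

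The chains of the T cell receptor complex gave few counts in any group. Cd3e had 5, 3 and 6 counts in control, 2, 0, 4 and 6 in CR, 2, 1, 5 and 0 in EX and 3, 4, 0 and 4 in CREX BAT, and all groups overlapped. Its ratio was 1.49 for control over CR (0.639 to 3.52) and 0.779 for EX over CREX (0.399 without EX replicate 3), and no change of Cd3e was detected at this depth. Cd3g had 4, 1 and 4 counts in control, 3, 0, 1 and 1 in CR, 1, 4, 4 and 7 in EX and 0, 1, 0 and 0 in CREX; in CPM every CREX library was below every EX library, although both groups held a library with 1 count, and the ratio of EX to CREX was 17.1 (2.66 to 718.8), or at least 4.39-fold without CREX replicate 2. Control and CR overlapped for Cd3g, at a ratio of 2.30 (0.691 to 8.72), or 4.30 (0.890 to 40.9) without CR replicate 1.

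Cd8a, the coreceptor chain of cytotoxic T cells, had 6, 7 and 0 counts in control, 1, 0, 3 and 2 in CR, 2, 2, 5 and 8 in EX and 0, 7, 2 and 0 in CREX BAT. Zeros occurred in control, CR and CREX, and the groups overlapped in both comparisons. The ratios were 2.77 for control over CR (0.980 to 8.87) and 2.02 for EX over CREX (0.853 to 5.15). They were 4.17 (1.48 to 13.4) without control replicate 3, the control library at 0, and 6.99 (1.66 to 62.4) without CREX replicate 2, which held 7 of the 9 CREX counts.

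Ptprc, the most abundant of the 9 genes, had 68, 69 and 61 counts in control, 20, 12, 22 and 31 in CR, 49, 51, 81 and 57 in EX and 35, 26, 27 and 44 in CREX BAT. No CR library reached a control library and no CREX library reached an EX library. Mean levels were 2.75 ± 0.236 CPM (SD, n = 3) in control, 0.915 ± 0.307 (n = 4) in CR, 2.60 ± 0.490 (n = 4) in EX and 1.35 ± 0.290 (n = 4) in CREX. Control stood at 2.97 times CR (counting interval 2.29 to 3.88) and EX at 1.93 times CREX (1.56 to 2.41).

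**Figure D2:**
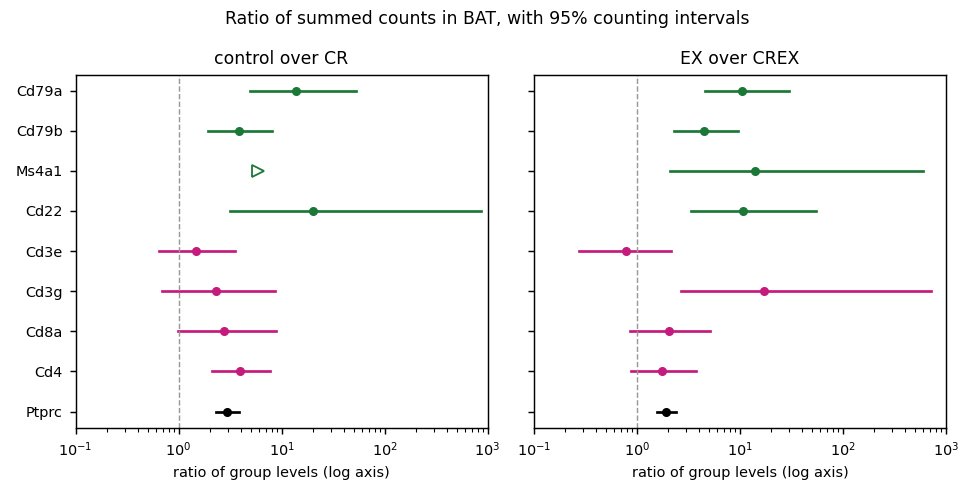
Ratio of group levels from counts summed over the libraries of each BAT group, on a log axis, for control over CR (left) and EX over CREX (right); points are ratios, lines 95% counting intervals and the open triangle a lower bound against the floor of 3 counts, green for B cell, magenta for T cell markers and black for Ptprc. The 3 B cell markers with an interval on the left and all 4 on the right have intervals above 1, as does Ptprc in both. The interval of Cd4 is above 1 on the left only and that of Cd3g on the right only, while the intervals of Cd3e and Cd8a include 1 in both.

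Across libraries, 6 of the 9 markers (Cd79a, Cd79b, Ms4a1, Cd22, Cd4 and Ptprc) were lower in every CR than in every control BAT library, compared with 13.5% of all 21557 genes with a count. In CREX against EX, 6 markers (Cd79a, Cd79b, Ms4a1, Cd22, Cd3g and Ptprc) were lower in every library, compared with 8.23% of 22138 genes. All 4 B cell markers were in both sets. Ptprc had 12 to 81 counts in these libraries and the other markers 0 to 18, so apart from Ptprc these are orders of small numbers.

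Tests were made with edgeR's quasi-likelihood test over all genes with enough counts, and a gene was called when its p, adjusted by Benjamini-Hochberg, was below 0.05 together with a fold change of more than 1.5. In CR against control BAT, only Cd79a and Ptprc had enough counts to be tested, and both were downregulated, where 10.7% of 13323 genes were called and 6.86% were called lower. The log2 fold change was -3.62 ± 0.44 (SE) for Cd79a (adjusted p = 0.000514, edgeR) and -1.57 ± 0.25 for Ptprc (adjusted p = 0.00203, edgeR), against a median of 0.0045 over all genes tested. Cd79a had entered this test through its control libraries, so that a difference was built into its entry; Ptprc exceeded 10 counts in every library. Without the filter on low counts all 9 markers entered, and 6 were called lower, where 4.38% of 21557 genes were: to Cd79a and Ptprc came Cd4 (adjusted p = 0.00967, edgeR), Cd22 (0.00991), Cd79b (0.0121) and Ms4a1 (0.0123). Cd3e, Cd8a and Cd3g were not called, with adjusted p values of 0.633, 0.359 and 0.476 (edgeR). The fit with DESeq2 called 4 markers, Cd79a, Ptprc, Cd4 and Cd79b.

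In CREX against EX, which asks for the effect of restriction in trained mice, Cd79a and Ptprc were again the markers tested and both were downregulated, with 4.48% of 13251 genes called and 2.63% called lower. The log2 fold change was -3.29 ± 0.51 for Cd79a (adjusted p = 0.00567, edgeR) and -0.94 ± 0.21 for Ptprc (adjusted p = 0.0261, edgeR). Cd79a entered through its EX libraries, so that a difference was built into its entry here too. Without the filter on low counts, Cd22 joined them (adjusted p = 0.0188, edgeR), where 1.48% of 22138 genes were called lower, and Cd3g (0.0597), Cd79b (0.0717) and Ms4a1 (0.0869) were not called. The call of Ptprc was lost without CREX replicate 1 (adjusted p = 0.0629), 2 (0.0667) or 3 (0.0608) and without EX replicate 2 (0.0510) or 3 (0.0698).

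When CR was averaged over untrained and trained mice in 1 fit over all 15 BAT libraries, all 4 markers with enough counts were downregulated, where 11.8% of 13922 genes were called and 7.83% were called lower. Log2 fold changes were -3.46 ± 0.34 for Cd79a (adjusted p = 3.90e-06, edgeR), -1.999 ± 0.40 for Cd79b (0.00163), -1.36 ± 0.38 for Cd4 (0.0121) and -1.26 ± 0.16 for Ptprc (5.25e-05). Cd79a, Cd79b and Cd4 reached 10 counts only in libraries of fed mice and entered through them, so nothing is read from their share called, and Ptprc alone had more than 10 counts in every library. These 4 calls stood in every fit that left out 1 library and still tested the gene. Without the filter, Cd22 (adjusted p = 0.000134, edgeR), Ms4a1 (0.00118) and Cd3g (0.0186) were also called lower, giving 7 of 9 where 5.12% of 23218 genes were, and Cd3e (0.9999) and Cd8a (0.298) were not.

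Training alone gave no called marker in BAT. EX against control called 0 of 4 tested markers (edgeR), where 0.00% of 13407 genes were called and 972 had an unadjusted p under 0.05, and DESeq2 called 36 genes and 0 of the 9 markers. Cd4 had the lowest unadjusted p of the 4, at 0.0304, with a log2 fold change of -1.23 ± 0.48 (adjusted p = 0.663, edgeR), and the other 3 had log2 fold changes of 0.13 for Cd79a, 0.01 for Cd79b and -0.07 for Ptprc. In CREX against CR only Ptprc was tested and was not called, at a log2 fold change of 0.55 ± 0.27 (adjusted p = 0.668, edgeR), where 0.00763% of 13112 genes were called. The interaction of CR and EX called 0 of 4 tested markers (lowest adjusted p = 0.879, edgeR), where 0.00% of genes were called and 800 genes had an unadjusted p under 0.05, Ptprc and Cd4 not among them (unadjusted p = 0.0731 and 0.155). DESeq2 called 4 genes for the interaction and 0 of the 9 markers. The comparisons of CR and of EX with control share the control libraries, and the comparisons of CREX share the CREX libraries.

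Relative to Ptprc, the B cell markers were lower in both restricted groups, while the T cell markers were not separated. Counts of the 4 B cell markers summed to 45.9 to 63.8 per 100 Ptprc counts in control, 16.1 to 25 in CR, 49.0 to 77.6 in EX and 5.71 to 26.9 in CREX BAT, with no overlap between fed and restricted mice. The 4 T cell markers summed to 27.5 to 47.1 per 100 Ptprc counts in control, 16.7 to 55.0 in CR, 16.3 to 38.6 in EX and 11.1 to 57.7 in CREX, and all groups overlapped. Without division by Ptprc, the T cell markers summed to 0.763 to 1.401 CPM in control and 0.0954 to 0.595 in CR, with no overlap. In EX (0.370 to 0.986 CPM) and CREX (0.124 to 0.664 CPM) these sums overlapped. The ratios and sums are descriptions from small counts, and no test was made of them.

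**Figure D3:**
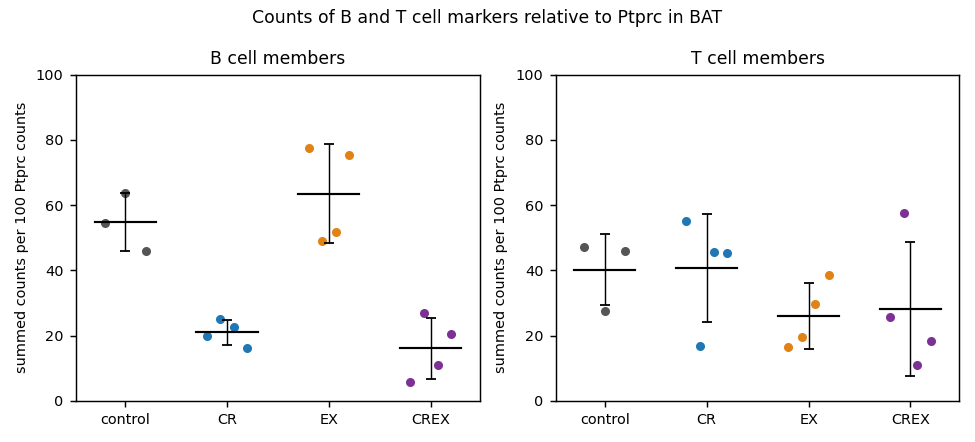
Counts of the 4 B cell markers (left) and the 4 T cell markers (right), summed in each BAT library and divided by its Ptprc counts, as counts per 100 Ptprc counts on linear axes from 0 to 100; points are libraries, long bars means and error bars 1 SD. For the B cell markers the restricted libraries reach 26.9 at most and the fed libraries start at 45.9; for the T cell markers the groups overlap.

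Further genes of leukocytes were taken from lists of related genes and described by counts. Of 15 pan-leukocyte genes in BAT, all were tested in the fit that averaged CR over training and 12 were downregulated, with a median log2 fold change of -1.03 over the list and -0.00047 over all genes tested. In this fit, which also gives the list counts that follow, 11.8% of all genes were called and 7.83% were called lower. The log2 fold change was -1.35 for Lcp1, an actin-bundling protein of leukocytes (adjusted p = 6.12e-06, edgeR), -1.17 for Rac2, a small GTPase of blood cells (6.88e-05), and -0.999 for Coro1a, an actin regulator (8.17e-05). The summed level of the list was 35.7 to 36.8 CPM in control, 14.7 to 19.3 in CR, 35.8 to 50.99 in EX and 18.0 to 28.2 in CREX BAT, so restricted and fed libraries did not overlap. In CREX against CR, where all libraries were of restricted mice, 13 of the 15 genes had enough counts. Entry of the others can have rested on libraries of fed mice, and nothing is read from the share called.

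Of 22 companion B cell genes, 17 were in the table and only 4 had enough counts; 3 of these were downregulated. The log2 fold change was -1.37 for Ralgps2 (adjusted p = 2.96e-05, edgeR), -1.42 for Bank1, an adaptor of B cell receptor signalling (0.00377), and -0.90 for Cd37, a tetraspanin of B cells (0.00197). Bank1 reached 10 counts only in libraries of fed mice and entered through them, so that a difference was built into its entry. Among the untested genes, Pax5, the factor that holds B cell identity, named here after its values were seen, had 4, 6 and 8 counts in control, none in CR, 7, 0, 2 and 0 in EX and 1, 0, 0 and 0 in CREX. Summed, the 17 genes stood at 5.52 to 6.87 CPM in control, 1.87 to 2.15 in CR, 5.20 to 7.26 in EX and 2.07 to 2.81 in CREX. Fcer2a, the low-affinity IgE receptor and the fourth gene tested, was not called. The immunoglobulin constant genes and T cell receptor constant genes of the lists were not analysed here.

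Signalling genes behind the B and T cell receptors were counted separately, and the difference between the lists was not tested. Of 12 B cell receptor signalling genes, 11 were tested and 6 were downregulated with CR averaged over training, with a median of -0.77, and none was upregulated. Log2 fold changes were -1.28 for Pik3ap1, an adaptor for PI3-kinase (adjusted p = 0.000252, edgeR), -0.77 for the kinase Syk (0.00209) and -1.01 for the linker Blnk (0.00341). Several of these genes are also used by myeloid cells. In CREX against CR, where all libraries were of restricted mice, 9 genes of this list had enough counts. Entry of others can have rested on libraries of fed mice, and nothing is read from the share called. Of 12 T cell receptor signalling genes, 8 were tested and 1, the adaptor Lcp2, was downregulated, at -0.66 (adjusted p = 0.0439, edgeR), with a median of 0.08, a share near that of all genes. In the T cell companion list 3 of 22 genes in the table were tested and Thy1 was downregulated, at -1.30 (adjusted p = 0.000303, edgeR); Thy1 is also made by fibroblasts and neurons.

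Other blood cell lists moved in part. Of 3 tested NK and cytotoxic genes, Il2rb, a receptor chain for interleukins, was downregulated at a log2 fold change of -1.14 (adjusted p = 0.0165, edgeR) and the factor Tbx21 at -1.204 (0.0482). No gene of this list had enough counts in CREX against CR, where all libraries were of restricted mice. Their entry thus rested on the libraries of fed mice, and nothing is read from their share called. All 16 macrophage and monocyte genes were tested, with 5 downregulated and 3 upregulated. In CREX against CR 14 of them had enough counts, so others can have entered through libraries of fed mice. The chemokine receptors Ccr2 and Cx3cr1 fell, at log2 fold changes of -1.54 (adjusted p = 1.07e-05, edgeR) and -2.57 (0.000253), whereas Mertk, a receptor for apoptotic cells, rose by 0.68 (0.00123). Among 7 tested genes of lymphocyte homing and survival, the stromal chemokine Cxcl12 fell, at -0.68 (adjusted p = 2.60e-05, edgeR) and the B cell chemoattractant Cxcl13 rose by 2.02 (0.00346).
Cxcl13 had 14, 9 and 54 counts in control, 54, 85, 42 and 57 in CR, 7, 26, 13 and 5 in EX and 137, 39, 117 and 83 in CREX BAT. It was high where the B cell markers were low, with control replicate 3 at the level of the CR libraries. The rise of Cxcl13 was called in CREX against EX but not in CR against control. Genes of lymph node stroma and vessels, 10 of which were in the table, summed to 34.6 to 38.7 CPM in control, 27.3 to 33.3 in CR, 32.3 to 36.0 in EX and 31.3 to 36.8 in CREX BAT, a lower range in CR than in control and an overlap between EX and CREX. Ltbr, at a mean of 30.1 CPM over the BAT libraries, made up most of this sum. In CR, 4 of the 10 genes had no count, and in control 2 had none. Of 3 genes of this list tested in the averaged fit, Cxcl13 was called higher and none lower. The part of attached lymph node tissue in the lymphocyte results was not tested.

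**Figure D4:**
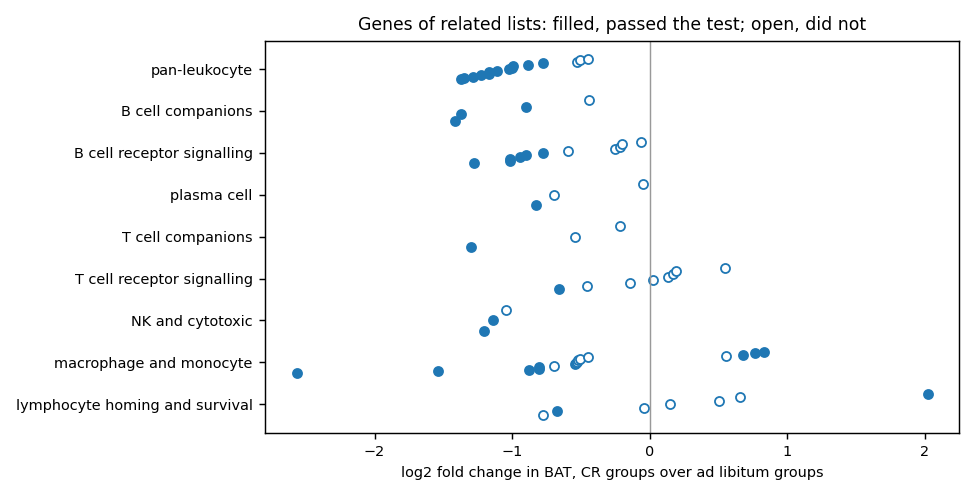
Log2 fold change in BAT of CR averaged over untrained and trained mice for each tested gene of 9 related lists, 1 point per gene on a linear axis; filled points passed the test (adjusted p under 0.05 and fold change above 1.5) and open points did not. Filled points of the pan-leukocyte, B cell companion and B cell receptor signalling lists are all below 0, the T cell receptor signalling list has 1 filled point, and Cxcl13 is the point above 2.

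In SkM most markers were at or under the floor in most libraries. Cd8a was not counted in any of the 14 libraries, which allows up to the floor of 3 counts in each, and Cd3e was counted only in control replicates 1 and 2, once each. Cd3g had 1 count in each of 4 libraries (1 CR, 1 EX and 2 CREX) and none in control. Cd4 had 0, 1, 0 and 14 counts in control, 1, 0 and 2 in CR, 2, 4, 0 and 0 in EX and 0, 1 and 1 in CREX muscle, so that its control mean rested on replicate 4 alone.

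B cell markers were present in SkM at a few counts. Cd79a had 0, 4, 6 and 3 counts in control, 2, 1 and 1 in CR, 1, 1, 3 and 7 in EX and 1, 2 and 2 in CREX, and Cd79b had 1, 5, 5 and 2, then 3, 1 and 0, then 2, 4, 4 and 6, and 3, 2 and 1 counts in the same order. The groups of both genes overlapped. Ms4a1 had 4 counts in all in control, 2 in CR, 2 in EX and 0 in CREX. Cd22 had 0, 3, 2 and 0 counts in control, 1, 0 and 0 in CR, 2, 1, 2 and 5 in EX and none in the 3 CREX libraries, and was at least 2.78-fold higher in EX than in CREX against the floor of 3 counts over the group, with bounds of 1.83 to 1.85 without EX replicate 4 or CREX replicate 1 or 3.

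**Figure D5:**
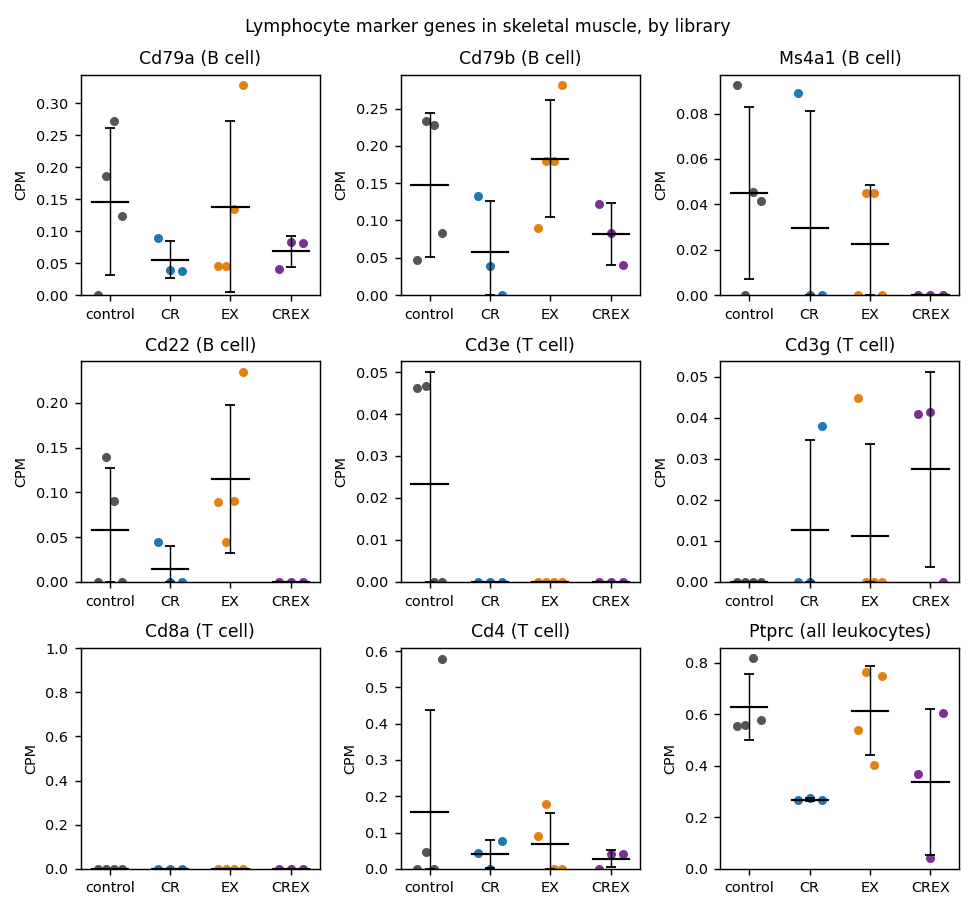
Level of each lymphocyte marker in the 14 SkM libraries, in TMM-scaled CPM on linear axes from 0 that differ between panels; points are libraries, long bars group means and error bars 1 SD, cut at 0. Ptprc is the gene with counts in every library and lies lower in each CR than in each control library; Cd8a is at 0 throughout and 1 control library holds most of the Cd4 counts.

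Ptprc had 12, 12, 18 and 14 counts in control, 6, 7 and 7 in CR, 12, 17, 9 and 16 in EX and 9, 1 and 15 in CREX muscle. CR was below control in every library, while EX and CREX overlapped because CREX spread from 1 to 15 counts. Mean levels were 0.628 ± 0.127 CPM (SD, n = 4) in control, 0.269 ± 0.00443 (n = 3) in CR, 0.614 ± 0.173 (n = 4) in EX and 0.338 ± 0.284 (n = 3) in CREX. Control stood at 2.34 times CR, with a counting interval of 1.38 to 4.11.

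Only Ptprc could be tested within SkM. With 6 to 7 counts in the CR libraries, it entered CR against control through the control libraries, so that a difference was built into its entry. Among restricted libraries only CREX replicate 3, with 15 counts, exceeded 10, so its entry into the averaged fit also rested on fed mice. Ptprc was downregulated in CR against control, with a log2 fold change of -1.199 ± 0.33 (adjusted p = 0.0369, edgeR), where 9.60% of 13173 genes were called and 5.32% called lower. That call was lost in DESeq2 (adjusted p = 0.122) and in 6 of 7 fits that left out 1 library: CR replicate 1 (0.0730), 2 (0.104) or 3 (0.0974), or control replicate 2 (0.0666), 3 (0.0947) or 4 (0.0579). With CR averaged over training the log2 fold change was -1.03 ± 0.35 (adjusted p = 0.0334, edgeR), where 14.1% of 13610 genes were called and 8.13% called lower, and that call was lost in 6 of 14 such fits: CR replicate 1 (0.0567), 2 (0.0601) or 3 (0.0598), control replicate 3 (0.0659), and EX replicate 2 (0.0628) or 4 (0.0588).
Ptprc was not called in CREX against EX, at -0.85 ± 0.58 (adjusted p = 0.338, edgeR), where 8.87% of 13112 genes were called. In EX against control it stood at -0.03 ± 0.30 (adjusted p = 1, edgeR), where 0.0775% of 12907 genes were called. In CREX against CR no marker had enough counts, and 0.00% of 13068 genes were called by edgeR, with 477 at an unadjusted p under 0.05 and 35 genes, no marker among them, called by DESeq2. The interaction of CR and EX in SkM was not called for Ptprc (adjusted p = 0.970, edgeR), where 0.00% of 13610 genes were called and 669 had an unadjusted p under 0.05; DESeq2 called 1 gene, not a marker. In SkM, 1 marker (Ptprc) was lower in every CR than in every control library, against 5.41% of 21442 genes, and 1 (Cd22) was lower in every CREX than in every EX library, against 5.95% of 21238 genes.

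Pan-leukocyte genes of SkM were lower with CR averaged over training: 11 of 15 were tested and 5 were downregulated. Their median log2 fold change was -0.76 beside 0.0042 over all genes tested, where 14.1% were called and 8.13% called lower. Only 6 of the 15 had enough counts in CREX against CR, so others entered through libraries of fed mice. In CREX against EX alone, 9 were tested and none was called, and in CR against control 10 were tested and 2 were downregulated. The log2 fold change was -1.13 for Lcp1 (adjusted p = 0.000412, edgeR) and -1.02 for Rac2 (0.00178). The list summed to 17.6 to 22.2 CPM in control, 10.4 to 12.6 in CR, 14.2 to 17.6 in EX and 7.13 to 14.1 in CREX muscle.

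Between the tissues of control mice, 3 markers were tested and 2 were higher in BAT, where 60.0% of 13797 genes were called. The log2 fold change of BAT over SkM was 1.73 ± 0.54 for Cd79a (adjusted p = 0.0116, edgeR) and 1.85 ± 0.22 for Ptprc (9.32e-06), and Cd4 was not called at 1.55 ± 0.91 (0.152). Cd79a reached 10 counts only in BAT and entered this test through it. In a test of the difference itself, CR lowered Cd79a more in BAT than in SkM, by 2.29 ± 0.78 on the log2 scale (adjusted p = 0.0381, edgeR), where 20.5% of 14865 genes were called. Cd79a entered this fit through BAT of fed mice, and with 0 to 7 counts in the SkM libraries it was tested in no comparison within SkM. This call was lost in 10 of 29 fits that left out 1 library, the highest adjusted p being 0.115 without SkM CR replicate 1. It was also lost without BAT CR replicate 1 (0.0508) or 4 (0.0503), BAT control replicate 1 (0.0565) or 2 (0.0541), BAT CREX replicate 3 (0.0524), SkM CREX replicate 2 (0.0766) or 3 (0.0756), and SkM EX replicate 1 (0.0507) or 2 (0.0516). The CR effects on Cd79b, Cd4 and Ptprc did not pass the test of a difference between tissues (adjusted p = 0.531, 0.907 and 0.729, edgeR).

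The genes most like the mean of the 4 B cell markers over the 15 BAT libraries, by Pearson's r of log2(CPM + 1) among 13243 genes, were Smoc2 (0.970), Ptgds (0.962), Col15a1 (0.954), Fam101b (0.95) and Myh10 (0.947). Smoc2 and Col15a1 encode matrix proteins, Ptgds prostaglandin D synthase and Myh10 a nonmuscle myosin. For the T cell markers of BAT they were Scyl2 (0.903), Hspa12b (0.900), Tcf15 (0.886), Pcdh1 (0.885) and Rbm26 (0.877). These libraries fall into fed and restricted groups, so that any gene with a large difference between those groups scores high, and the values are descriptions.
In SkM, over 14 libraries and 12994 genes, the leading genes for the B cell markers were Klhl31 (0.887), Mmp11 (0.882), Efna1 (0.857), Klc4 (0.853) and Ifi35 (0.843). For the T cell markers they were Mmp9 (0.882), Adgre1 (0.873), Pla2g2d (0.851), Ivns1abp (0.831) and Ankrd11 (0.814), where control replicate 4 held 14 counts of Cd4.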

How the data were processed

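RNA-seq libraries of whole BAT (15) and gastrocnemius muscle (14) were used, 29 in all. The authors trimmed reads with trim-galore, aligned them to mm10 with STAR (2.7.10a) and quantified them with RSEM (1.2.28), versions as in the submitters' processing notes; the deposited values are its expected counts for each symbol, without normalization. Which annotation was used is not given in the sources used here. About 6.11% of values were not whole, and all were rounded to whole numbers. Of the 24770 symbols, 27 had been turned into dates and 2 are duplicates; none is named. No 2 replicates agreed within sampling noise. Depth was 21047242 to 24919377 counts in BAT and 23050918 to 23425284 in SkM; 3 counts were taken as the floor, and intervals are exact conditional intervals at 95% that cover counting error only.

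Each of the 14 comparisons was fitted in edgeR 4.0.16 (R 4.3.3, limma 3.58.1) with the robust quasi-likelihood test, TMM and filterByExpr (minimum 10 counts), on the libraries of its own groups, or on all groups of the tissue or of both tissues for averaged effects, interactions and tissue differences. A gene was called below an adjusted p of 0.05 (Benjamini-Hochberg) if its fold change exceeded 1.5 (interactions and the tissue difference by adjusted p alone). The alternatives were DESeq2 1.42.0, with and without independent filtering, RLE size factors, no filter, a replicate block, 1 fit for all groups, no fold minimum and leaving out each library; the DESeq2 run without independent filtering was chosen after the data were seen. The fits were tested on simulated data. Same-numbered libraries of different groups did not deviate together in every pair of any comparison, so the numbers were not taken as pairs.

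The members, gene lists and tests were chosen with earlier results of these data known. Named beside the 9 markers were up to 3 called genes of each list with the smallest p, the most abundant gene of a list, and the 5 genes most alike in each tissue among those averaging at least 10 counts. Exon lengths are from GENCODE vM21, gene coordinates of all 9 markers from a RefSeq gene table, and promoters from a separate RefSeq promoter table (250 bases before and 50 after a start), in which 6 of the 9 had an entry, both of GRCm38.p6. Labels do not say whether BAT and muscle libraries came from the same animals. Tables and plots were made in Python 3.11.15 (pandas 2.3.3; scipy 1.17.1; matplotlib 3.10.9).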

Additional observations from a re-analysis of the deposited data

Results flagged for a closer look

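In 40 groups of 4 libraries, 1 library lying apart from the rest was looked for in each marker. For continuous values chance alone gives about 1 in 20, a rate that does not hold for counts this low. A group with a single count above zeros in the other libraries is always flagged. Of the 6 groups found, 4 held a single count above zeros in the other libraries: Ms4a1 in CREX BAT (0.0413 CPM), Cd22 in CR BAT (0.0433 CPM), Cd3g in CREX BAT (0.0443 CPM) and Cd3g in EX muscle (0.0449 CPM), all below the floor. Cd4 in control muscle stood at 0.579 CPM (14 counts) in replicate 4, with 0 or 1 count in the other 3 libraries. Ptprc in control muscle stood at 0.818 CPM (18 counts) in replicate 3, with 12 to 14 counts in the other 3. The CR effect on Cd79a, averaged over training, differed between BAT and SkM by a log2 value of -2.29 in a test of the difference (adjusted p = 0.0381, edgeR). Cd79a entered that fit through BAT of fed mice. The call held in 19 of 29 fits that left out 1 library and was lost without the filter on low counts (adjusted p = 0.0631, edgeR).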

How the results depend on the processing

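No called marker changed direction under any alternative run, and of the recounts of called markers 194 stayed within 1.5 times the count first given and 44 did not. In BAT, the count for CR against control was 2, and it was 4 with DESeq2, 6 without the filter on low counts and 4 with 1 fit on all groups; the count for CREX against EX was 2, 1 with the replicate block, and 1 to 2 when each library was left out. With CR averaged over training it was 4 in BAT, and 7 with DESeq2, with DESeq2 without independent filtering, and without the filter. In SkM the count for CR against control was 1, and it was 0 with DESeq2 in both forms, without the filter, with the replicate block and with 1 fit on all groups, and 0 to 1 when each library was left out. With CR averaged over training it was 1 in SkM, 2 without the filter, 0 with the replicate block, and 0 to 1 when each library was left out. BAT over SkM in control mice gave 2 markers, and 6 without the filter. The difference between tissues gave 1 marker, 0 with DESeq2 without independent filtering, 0 without the filter, and 0 to 1 when each library was left out. The level of Ptprc in CR muscle was 0.269 CPM, and 0.287 without TMM. Leaving the filter out lets genes of a few counts be tested; the cause of the other shifts was not tested.

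The replicate block, whose numbers did not pair the libraries, also moved single calls. Lost were Ptprc in CREX against EX in BAT (adjusted p = 0.0596, edgeR), Cd79a in BAT against SkM of control mice (0.0515) and Ptprc in SkM with CR against control (0.0735) and averaged over training (0.0772). Gained was Cd4 in BAT against SkM of control mice, at a log2 fold change of 4.62 (adjusted p = 0.00116, edgeR). Cd3e and Cd8a had 0 to 8 counts in every library. With CR averaged over training in BAT, without the filter, they were not called (adjusted p = 0.9999 and 0.298, edgeR). Cd22 (0.000134), Ms4a1 (0.00118) and Cd3g (0.0186), with 0 to 10 counts, were called lower in that fit. A smaller change of Cd3e or Cd8a may not be detectable at this depth.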
